A study of Mus musculus with 26 samples.

Results

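The annexin family was examined as 9 genes, Anxa1, Anxa2, Anxa3, Anxa4, Anxa5, Anxa6, Anxa7, Anxa8 and Anxa11, taken by symbol from the 56941 genes of the count and TPM tables. All 9 were among the 14907 genes kept for testing. The members were chosen by the counts of Anxa3, which differed clearly between both intensity groups and the controls in these libraries, and then by family. The levels of Anxa3 in those groups are therefore given as a description, and no test of Anxa3 there is read as a result. Its calls there are listed only to show how they moved with the processing. The question was whether its paralogs shared its pattern. Tests on the paralogs in the same libraries are not independent of that choice.

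Annexins are proteins that bind negatively charged phospholipids when calcium rises. Each has a variable N-terminal tail, which holds the sites for partner proteins, and a conserved core of annexin repeats that docks on the membrane. They take part in membrane repair, vesicle traffic, the link between membrane and actin, and the control of inflammation. In nervous tissue they have been described in glia, vessels and neurons.

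Spheroids of motor neurons were grown from mouse embryonic stem cells of the line HBG3 (HB9::GFP; genotype labelled heterozygous blastocysts), which had been kept on feeder cells before differentiation. Every group shared differentiation with retinoic acid and puromorphamine, later ciliary and glial derived neurotrophic factors, and seeding at about day 8 on a fibrin platform. The groups were the actuated array (n = 4), a magnetic silicone array moved for 30 min each day at 4 Hz, the static array that was never moved (n = 4), low intensity (n = 6), high intensity (n = 6) and biochemical controls (n = 6). The labels give low and high intensity only as biochemical treatments; that both had medium conditioned by muscle cells is assumed here, and which of them had stimulated muscle is not paired with these names. Nothing says whether replicates were separate differentiations, so p-values measure the spread between these libraries, which may be technical.

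Total counts ranged from 1536 to 13162635 per library. Protein-coding genes had under 1000000 counts in 5 libraries: high intensity 4 and 5, static array 3, control 4 and low intensity 6, numbered by replicate. Of their counts, rRNA made up 75.7% in control 4, 17.2% in low intensity 6 and 6.25% in high intensity 4. It made up 2.35% in high intensity 5 and 0.70% in static array 3. Low intensity replicate 6 had counts on 0 of the 9 annexins and high intensity replicate 4 on 1, so levels are given over the other 21 libraries, called the deeper libraries. These held 1551334 to 3971348 counts in the biochemical groups and 7269276 to 13162635 on the arrays. Each test was made on all libraries and repeated on the deeper ones. Levels within a gene are CPM (counts scaled to library size, here by TMM), and levels between genes are TPM, which take transcript length into account.

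In the controls Anxa2 was the most abundant annexin, at 54.6 ± 17.96 TPM (SD, n = 5). Anxa2 pairs with S100a10 and binds actin and plasminogen at the cell surface. Anxa6, which carries a duplicated core, followed at 34.3 ± 7.62 TPM, and Anxa5, the phosphatidylserine binder used to stain dying cells, at 17.5 ± 7.35 TPM. The lower part of the order was Anxa1, Anxa7, Anxa3, Anxa4, Anxa11 and Anxa8, with means from 11.05 TPM (Anxa1) down to 0.0923 TPM (Anxa8). Anxa3 thus belonged to the scarce annexins in the controls, where 5 deeper libraries held 26 counts of it in all. At low intensity its mean was 39.2 ± 25.6 TPM (n = 5), between Anxa5 (46.6 ± 12.3 TPM) and Anxa7 (16.7 ± 4.01 TPM). Its share of the summed TPM of the 9 genes was 0 to 3.87% in the controls, 3.55% to 11.1% at low intensity and 2.89% to 9.51% at high intensity, so this share overlapped between groups.

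Anxa3 has been linked to phagosomes of neutrophils and to growth of vessels. In the controls it stood at 0.288, 1.05, 0, 1.87 and 5.22 CPM in replicates 1, 2, 3, 5 and 6. At low intensity it stood at 56.7, 42.3, 8.52, 19.0 and 66.3 CPM in replicates 1 to 5. At high intensity it stood at 29.0, 22.7, 60.9 and 7.71 CPM in replicates 1, 2, 3 and 6. Every intensity library was above every control, with the gap between 5.22 and 7.71 CPM, and the intensity libraries themselves spread widely. The share of all genes whose groups lay apart was not counted, here or for the paralogs below. The log2 fold change of Anxa3 was 4.45 (SE 0.78) at low and 4.07 (SE 0.80) at high intensity over the deeper libraries. Over all libraries it was 4.43 and 3.90. On the static array the values were 4.97, 3.42 and 22.6 CPM in replicates 1, 2 and 4, and on the actuated array 2.09, 7.79, 1.54 and 5.50 CPM. By group mean the order was low intensity (38.6 CPM), high intensity (30.1), static array (10.3), actuated array (4.23) and control (1.69), and each neighbouring pair in that order overlapped. A single static array library, replicate 4, was far above the rest of the arrays.

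**Figure D1:**
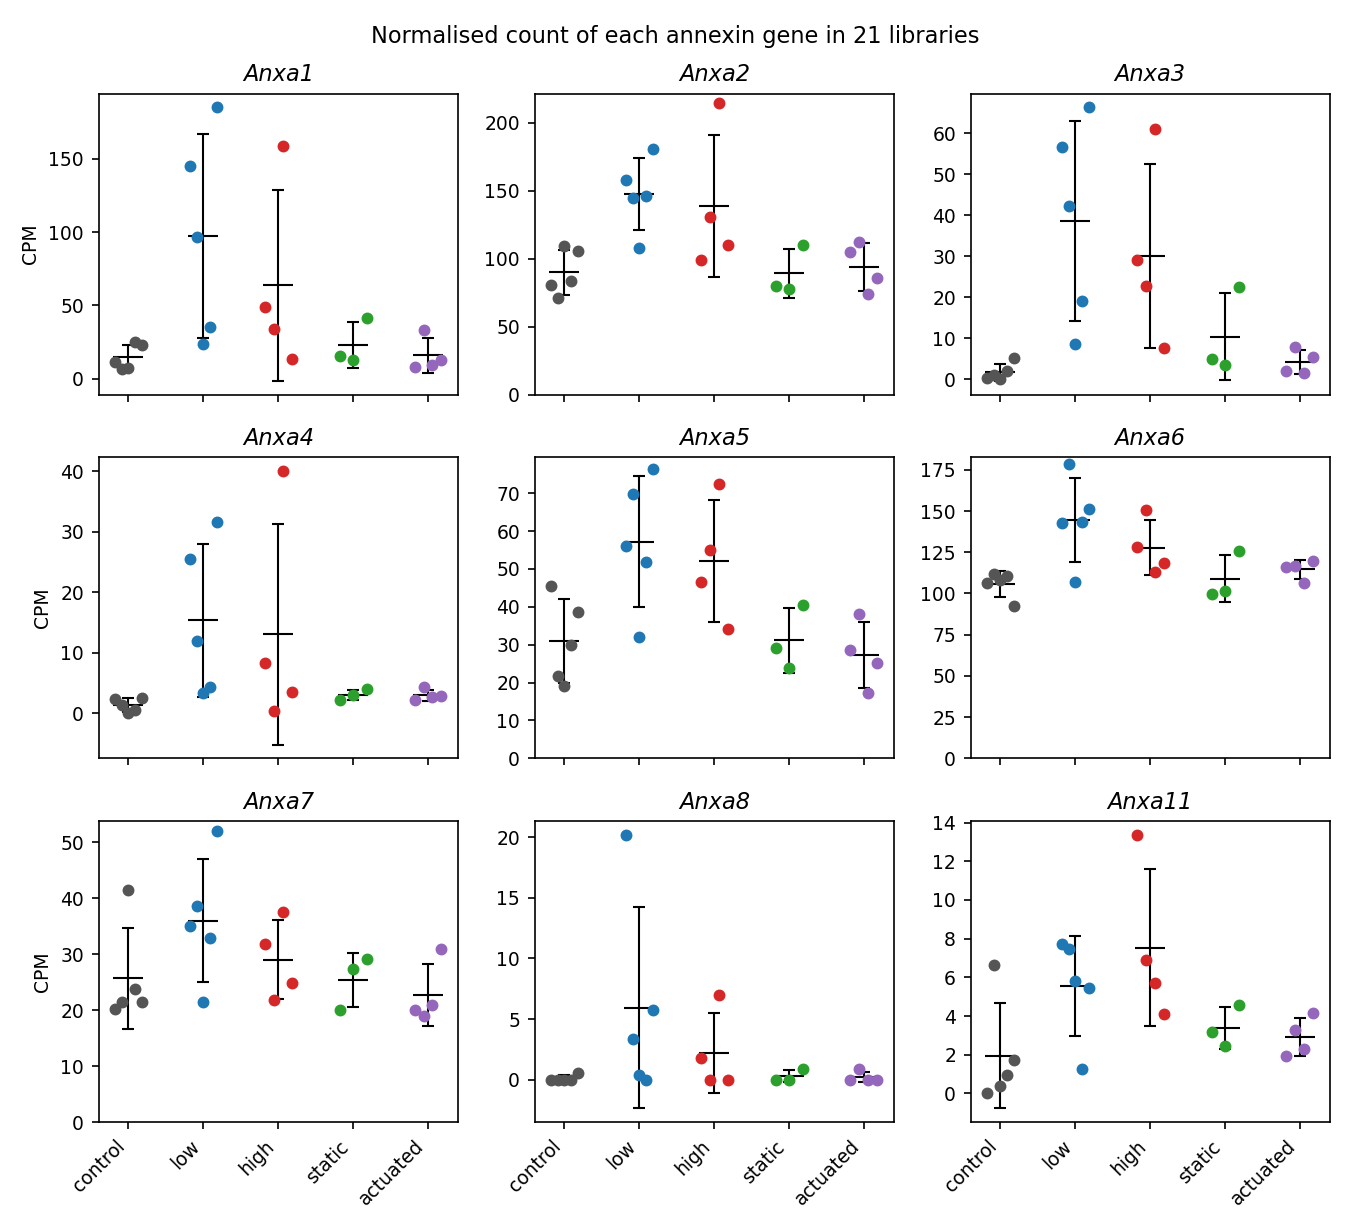
Normalised count (CPM, linear axis) of each of the 9 annexin genes in the 21 deeper libraries, by group; points are libraries, the long bar is the mean and the whiskers are 1 SD. Anxa3 in both intensity groups (7.71 to 66.3 CPM) lies above all 5 controls (0 to 5.22 CPM), while Anxa2, Anxa5, Anxa6 and Anxa7 have levels in every group and shift less.

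Anxa1 was the paralog closest to Anxa3. It is a protein induced by glucocorticoids that signals through formyl peptide receptors to limit inflammation. Anxa1 stood at 11.2, 7.01, 7.31, 24.8 and 23.2 CPM in the controls and at 145, 96.6, 23.5, 35.4 and 185 CPM at low intensity. At high intensity it stood at 48.7, 33.6, 158.6 and 13.5 CPM. The libraries with the most Anxa3, low intensity replicates 1, 2 and 5 and high intensity replicate 3, were also those with the most Anxa1, but the lowest intensity libraries overlapped the controls. Against the controls, Anxa1 rose at low intensity in the deeper libraries (log2 fold change 2.74, SE 0.62, edgeR adjusted p = 0.0418). This call was not made over all libraries (2.75, edgeR adjusted p = 0.156), and it held in 10 of 21 refits of the deeper libraries that each left out 1 (edgeR adjusted p from 0.0150 to 0.120). The 11 libraries whose omission ended it were controls 1, 2, 3 and 5, low intensity 1, 2 and 5, actuated 1 and 4, and static 1 and 2. At high intensity Anxa1 was 2.10 (SE 0.64) above the controls on the log2 scale in the deeper libraries and did not pass (edgeR adjusted p = 0.110).

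Anxa4, a calcium-dependent binder of epithelial membranes, was scarce in the controls, at 2.30, 1.40, 0, 0.468 and 2.61 CPM. At low intensity it stood at 25.4, 11.99, 3.41, 4.43 and 31.6 CPM, with no overlap with the controls. At high intensity it stood at 8.32, 0.405, 40.1 and 3.58 CPM, and replicate 2 lay within the control range. The fold changes in the deeper libraries were 3.41 (SE 0.83) at low and 3.14 (SE 0.85) at high intensity on the log2 scale, with edgeR adjusted p = 0.0552 and 0.0801, so neither passed 0.05. High intensity replicate 2 had 22.7 CPM of Anxa3 and 1 count of Anxa4, the largest departure of Anxa4 from Anxa3 in the plot of each annexin against Anxa3.

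Anxa8, known from epithelia and late endosomes, was nearly absent. The 5 deeper controls held 2 counts of it, both in replicate 6, and the low intensity libraries held 73, 9, 1, 0 and 17 counts. The high intensity libraries held 7, 0, 17 and 0 counts. Per total count the ratio to the controls was 58.2 at low intensity (exact 95% binomial interval 15.7 to 486.8) and 15.5 at high intensity (3.84 to 135.0), intervals that cover counting error only. Single libraries carried much of these ratios, which were 21.3 without low intensity replicate 1 and 5.69 without high intensity replicate 3. Without control replicate 6 the controls held 0 counts. With the controls set at a floor of 3 counts over that group, the ratio was 30.1 at low and 7.99 at high intensity. That floor allows for the control counts only, and not for the single intensity libraries that carried the ratios. Both groups overlapped the controls, and in edgeR the adjusted p was 0.122 at low and 0.293 at high intensity in the deeper libraries.

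The abundant members differed by much smaller folds. Anxa2 stood at 71.1 to 109.2 CPM in the controls (median 83.3), 108.0 to 180.3 at low intensity (median 146.0) and 98.9 to 214.2 at high intensity (median 120.4). On the log2 scale it was 0.71 (SE 0.19) above the controls at low and 0.62 (SE 0.20) at high intensity, with edgeR adjusted p = 0.0615 and 0.123. Anxa5 stood at 19.2 to 45.4 CPM in the controls, 32.0 to 76.5 at low and 34.2 to 72.3 at high intensity, with log2 fold changes of 0.88 (SE 0.27) and 0.73 (SE 0.28). Neither gene passed, and for both each intensity group overlapped the controls.

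Anxa6 helps to reseal injured muscle membrane and binds endosomes rich in cholesterol. It stood at 106.1, 111.8, 108.1, 110.9 and 92.2 CPM in the controls and at 128.4, 150.8, 113.2 and 118.7 CPM at high intensity. These groups did not overlap, but the log2 fold change was only 0.27 (SE 0.13, edgeR adjusted p = 0.293). At low intensity Anxa6 was 0.45 (SE 0.12) above the controls (edgeR adjusted p = 0.0638), and replicate 3 lay within the control range. Anxa7, or synexin, was named for the fusion of secretory granules. It stood at 20.1 to 41.5 CPM in the controls, 21.5 to 52.0 at low and 21.9 to 37.6 at high intensity, and its log2 fold change at high intensity was 0.18 (95% interval -0.34 to 0.71). Over all libraries that value was -0.03, so the direction of Anxa7 was not fixed. Anxa2 and Anxa5 turned below the controls on 1 other scale, limma on log2(TPM + 0.1) over all libraries (-0.47 for each at high intensity, -0.0091 and -0.063 at low).

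Anxa11 tethers RNA granules to moving lysosomes in axons and binds the S100a6 and Pdcd6 proteins. It stood at 0, 6.66, 0.385, 0.936 and 1.74 CPM in the controls, 7.75, 7.49, 5.79, 1.26 and 5.44 at low intensity and 13.4, 6.89, 5.72 and 4.13 at high intensity. Control replicate 2 lay within the range of both intensity groups. The log2 fold changes were 1.53 (SE 0.69) and 1.95 (SE 0.72), with edgeR adjusted p = 0.290 and 0.172. Of the 50-base windows in its annotated transcripts, 16.2% also occur in Anxa11os, Gm2260 or Gm2274, so its counts are less certain than those of the other members.

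Apart from Anxa3, 0 of 8 paralogs passed edgeR's threshold at high intensity against the controls over all libraries, where 0.0402% of all genes were called, and 0 in the deeper libraries, where 0.462% were. At low intensity against the controls 0 paralogs were called over all libraries, against 0.0268% of genes, and 1 (Anxa1) in the deeper libraries, against 0.597%. In the deeper libraries all 8 listed paralogs were above 0 in both contrasts, where 49.1% of all genes were at low and 50.3% at high intensity. The family was proposed from these contrasts, so nothing is read from these counts. The 2 contrasts share the same control libraries. Outside the list, Anxa10 and Anxa9 were scarce, were not tested and had lower means at both intensities than in the controls. Anxa10 had a mean of 2.27 CPM in the controls, 0.782 at low and 1.66 at high intensity. Anxa9 had means of 0.678, 0.473 and 0.618 CPM. Anxa13 had 0, 1 and 1 counts in these groups.

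**Figure D2:**
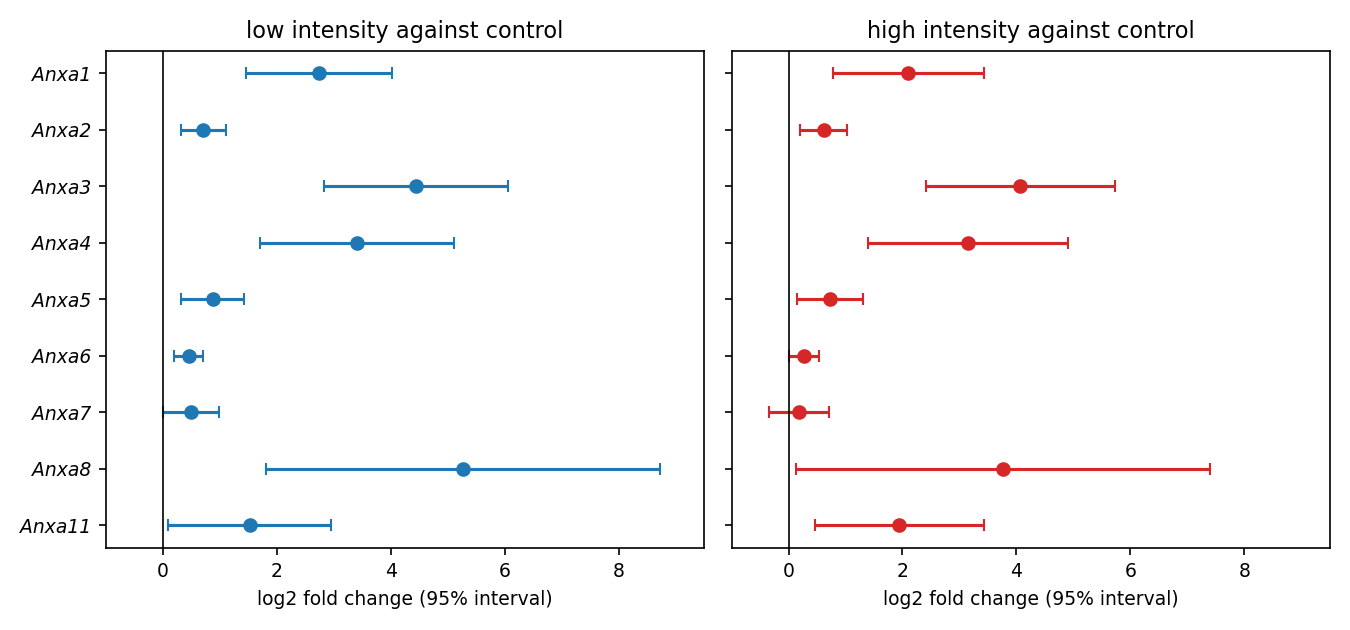
Log2 fold change against the controls of each annexin gene in the deeper libraries, low intensity (left) and high intensity (right); points are edgeR estimates and bars are 95% intervals. Anxa3, Anxa4, Anxa8, Anxa1 and Anxa11 have estimates above 1.5 in both panels, and Anxa2, Anxa5, Anxa6 and Anxa7 below 0.9.

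The spread among replicates gave a view of the family that the choice of Anxa3 had not used. Each paralog was set against Anxa3 on log2(CPM + 1), after the mean of each group had been taken away, over the 14 deeper libraries of the biochemical groups. Anxa1 followed Anxa3 most closely (Pearson r = 0.92, Spearman rho = 0.89; exact permutation within groups, two-sided, p = 0.000107 for r and 0.000368 for rho). Anxa8 (r = 0.75, rho = 0.82), Anxa5 (r = 0.73, rho = 0.69) and Anxa4 (r = 0.69, rho = 0.73) followed. With Benjamini-Hochberg adjustment over the 8 relations, these 4 passed 0.05 by r (exact permutation adjusted p = 0.000857, 0.0161, 0.0236 and 0.0282) and by rho (0.00278, 0.00278, 0.0320 and 0.0229). Anxa2 did not pass (r = 0.59, rho = 0.62, exact permutation adjusted p = 0.0764 and 0.0519). Anxa7 (r = 0.37, rho = 0.41), Anxa11 (r = 0.37, rho = 0.38) and Anxa6 (r = 0.22, rho = 0.08) did not either, with exact permutation adjusted p from 0.239 to 0.803. Without the 2 libraries farthest from the median of Anxa3, Anxa1 (r = 0.87), Anxa8 (0.67) and Anxa4 (0.66) still passed. Anxa5 fell to r = 0.54 (exact permutation adjusted p = 0.235), so its relation rested on those libraries, and Anxa6 turned to r = -0.34.

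Leaving out each of the 14 libraries in turn, Anxa1 kept r between 0.90 and 0.94 and passed in all 14 runs. Anxa8 passed in 13 and was lost without high intensity replicate 3 (r = 0.69). Anxa5 passed in 10, the exceptions being low intensity replicates 3 and 5 and high intensity replicates 3 and 6 (exact permutation adjusted p up to 0.107). Anxa4 passed in 9, the exceptions being control replicate 6, low intensity replicates 1, 3 and 5 and high intensity replicate 3 (exact permutation adjusted p up to 0.107). The smallest loss was thus for Anxa1, and the others depended on single libraries.

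Within the 9 deeper libraries of both intensity groups, with no control among them, r with Anxa3 was 0.97 for Anxa1 (rho 0.98), 0.92 for Anxa5 (rho 0.92), 0.84 for Anxa8 (rho 0.85) and 0.83 for Anxa7 (rho 0.83). It was 0.77 for Anxa4 (rho 0.87) and 0.76 for Anxa2 (rho 0.73). These 6 passed (exact permutation over all 9 libraries, adjusted p from 6.61e-05 to 0.0244 by r and from 0.000397 to 0.0415 by rho), while Anxa6 (r = 0.48, rho = 0.38) and Anxa11 (r = 0.31, rho = 0.27) did not (0.224 to 0.493). The same 6 passed after the means of the 2 groups had been taken away (exact permutation within groups, adjusted p from 0.00278 to 0.0407 by r), with r = 0.98 for Anxa1. Without the 2 libraries farthest from the median, Anxa1 (0.99), Anxa8 (0.91) and Anxa4 (0.89) passed and the others did not; on deviations from group means Anxa1 and Anxa4 alone did. Over the 7 deeper array libraries, r was 0.92 for Anxa1 (rho 0.93), 0.87 for Anxa11 (rho 0.93), 0.83 for Anxa5 (rho 0.82) and 0.81 for Anxa8 (rho 0.80). It was 0.72 for Anxa4, 0.59 for Anxa2, 0.59 for Anxa6 and 0.43 for Anxa7. Of these 8 relations 4 passed by r and 2 (Anxa1 and Anxa11) by rho (exact permutation over the 7 libraries, adjusted p from 0.0111 to 0.0476 by r). After the 2 group means were taken away 0 of 8 passed by either (smallest exact permutation adjusted p = 0.103 by r), with r = 0.92 for Anxa1 and 0.88 for Anxa6. Groups of 4 and 3 libraries allow so few arrangements that no relation could pass 0.05 on its own after adjustment. That 0 of 8 passed therefore does not show that the relations were lost. With the groups pooled and each library left out in turn, Anxa1 passed by r in 5 of 7 runs (exact permutation adjusted p up to 0.122). Anxa11 passed in 3, Anxa5 in 1 and Anxa8 in 0. Anxa8 had 0 counts in 3 of 4 actuated and 2 of 3 static libraries. Without static array replicate 4, Anxa1 had r = 0.87 and did not pass, and Anxa2 was at 0.40, Anxa6 at 0.25 and Anxa7 at 0.11. Points of 1 plot share a library, its scaling and its mix of cells.

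**Figure D3:**
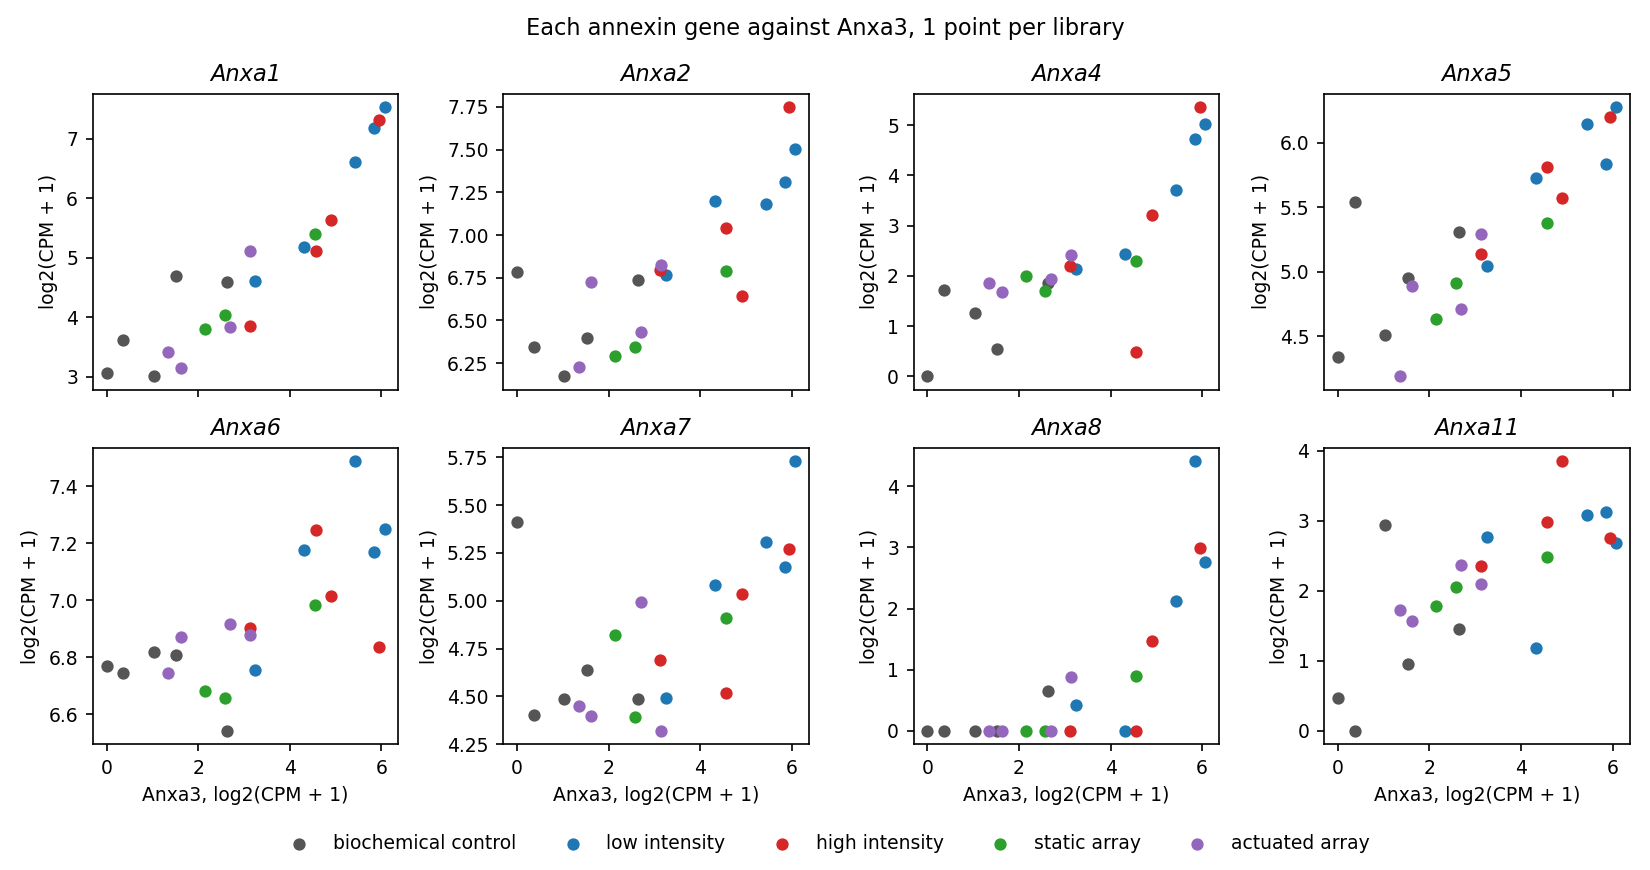
Each of the 8 other annexin genes (vertical axis) against Anxa3 (horizontal axis), both as log2(CPM + 1), with 1 point per deeper library coloured by group. Anxa1 climbs with Anxa3 in nearly a line through the control, array and intensity libraries (r = 0.92). Anxa6 (r = 0.69), Anxa7 (0.55) and Anxa11 (0.72) also climb but scatter more.

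Among 11329 protein-coding genes with a mean of at least 5 CPM, the 5 most like Anxa3 over all 21 deeper libraries were Pcolce (r = 0.92), Anxa1 (0.92), S100a6 (0.92), Iqgap1 (0.91) and Plau (0.91). This measure carries the group differences as well as the spread within groups. Pcolce encodes an enhancer of procollagen processing, S100a6 a calcium-binding protein, Iqgap1 an actin scaffold and Plau the urokinase plasminogen activator. The median r over those genes was -0.01 and the 95th percentile 0.604. Anxa1 ranked 2, Anxa5 35, Anxa2 69, Anxa4 74, Anxa6 283 and Anxa7 806, and Anxa8 and Anxa11 were below the level needed for a rank. After group means were taken away, r was 0.92 for Anxa1, 0.91 for S100a6, 0.86 for Iqgap1, 0.83 for Pcolce and 0.78 for Plau. The 95th percentile over all ranked genes was 0.504. These 5 genes were picked by r over the same libraries, so their values are no separate check and the percentile is not a like reference.

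The upstream sequence is shown for Anxa1, the member nearest to Anxa3, and Anxa2, the most abundant one, because of the 7 members with an entry these were the ones with a TATAAA match. The windows are the 250 bases before the RefSeq start on GRCm38.p6, at chr19:20390672-20390921 (minus strand) for Anxa1 and chr9:69453433-69453682 (plus strand) for Anxa2, written 5′ to 3′ along the gene. Capitals mark matches on either strand. The motifs searched were GGGCGG, known as the GC box, and TATAAA, known as the TATA box. Further ones were TGANTCA for AP-1, GGAATG for TEAD and CCAAT.
Anxa1: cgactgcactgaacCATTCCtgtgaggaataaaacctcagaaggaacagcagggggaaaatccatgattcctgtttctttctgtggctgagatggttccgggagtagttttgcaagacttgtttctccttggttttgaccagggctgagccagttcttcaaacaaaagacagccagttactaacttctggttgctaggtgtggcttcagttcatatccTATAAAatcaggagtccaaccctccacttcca
Anxa2: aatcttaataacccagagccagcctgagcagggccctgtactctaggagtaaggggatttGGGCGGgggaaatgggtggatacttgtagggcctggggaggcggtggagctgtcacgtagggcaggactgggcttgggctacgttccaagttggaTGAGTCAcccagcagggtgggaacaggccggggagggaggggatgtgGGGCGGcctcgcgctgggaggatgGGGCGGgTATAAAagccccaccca
Anxa1 held TATAAA at -32 and GGAATG at -236 from the start, and Anxa2 held TATAAA at -17, TGANTCA at -95 and 3 GC boxes. Of 32851 windows of this length, 12.4% held TATAAA, 12.6% GGAATG, 6.75% TGANTCA and 32.7% GGGCGG. The motif CCAAT, present in 33.8% of windows, was in none of the members' windows. GC boxes were also found for Anxa7 and Anxa11. The windows of Anxa4, Anxa5 and Anxa8 held none of the 5 motifs. These are matches of letters and not sites of binding.

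Actuation of the array was a contrast that had not been used to choose the family. In edgeR 0 of 9 members were called for the actuated against the static array, where 0% of all genes were, over all libraries and in the deeper ones. With an unadjusted p under 0.05 there were 0 members, beside 3.86% of all genes over all libraries and 0.38% in the deeper ones. DESeq2, which called 36 of all 14907 genes, called 0 members, as did limma voom and limma on TPM, which called 0 of all genes. Anxa3 was 1.25 lower on the log2 scale on the actuated array in the deeper libraries (95% interval -2.78 to 0.28), and without static array replicate 4 the direction turned, to 0.04 higher. Anxa1 differed by -0.50 (95% interval -1.89 to 0.89), Anxa2 by 0.08 (-0.37 to 0.53) and Anxa6 by 0.07 (-0.22 to 0.36). In the deeper libraries the intervals of Anxa2 and Anxa6 were narrow, while those of the scarce Anxa3, Anxa4 and Anxa8 leave room for large differences. Over all libraries the intervals of Anxa2 (-0.80 to 1.18) and Anxa6 (-0.69 to 1.08) were wider.

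High against low intensity likewise gave 0 members called of 9 in edgeR, where 0% of all genes were. The unadjusted p was under 0.05 in edgeR for 0 members, beside 2.91% of all genes over all libraries and 7.68% in the deeper ones. DESeq2 (7 of all genes called), limma voom (0) and limma on TPM (0) called 0 members. In the deeper libraries 8 members were lower and 1 (Anxa11) higher at high intensity, with a median log2 fold change of -0.27 beside 0.01 over all genes. Anxa3 differed by -0.38 (95% interval -1.70 to 0.94) and Anxa1 by -0.64 (-1.87 to 0.59). Anxa2 differed by -0.10 (-0.50 to 0.31) and Anxa6 by -0.18 (-0.44 to 0.08). The groups overlapped for all 9 genes, and the share of all genes whose groups overlapped was not counted.

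For the static array against the controls 0 members were called in edgeR, where 0.0134% of all genes were over all libraries and 0.713% in the deeper ones. In edgeR 1 member of 9, Anxa3, had an unadjusted p under 0.05, beside 5.27% of all genes over all libraries and 12.6% in the deeper ones. Nothing is read from that count. Anxa3 was 2.58 above the controls on the log2 scale over all libraries (edgeR adjusted p = 0.465) and 2.52 (SE 0.84) in the deeper ones (edgeR adjusted p = 0.175). Without static array replicate 4, the deeper value was 1.25. Anxa1 was at 0.66 (95% interval -0.75 to 2.06), Anxa4 at 1.07 (-0.79 to 2.93), Anxa5 at -0.01 (-0.63 to 0.62) and Anxa2 at -0.01 (-0.45 to 0.43). This contrast shares its controls with the intensity contrasts and sets libraries of unlike depth side by side.

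The partners of annexins and other genes of membrane repair were described from a list of 17, of which 13 were fitted over all libraries and 14 in the deeper ones. Over all libraries 0 of 13 were called in any of the 5 contrasts, where 0% to 0.0402% of all genes were. In the deeper libraries Ahnak was the 1 gene of 14 called, at low intensity against the controls, where 0.597% of all genes were (log2 fold change 2.03, SE 0.43, edgeR adjusted p = 0.0352). Ahnak encodes a giant scaffold that binds the Anxa2 and S100a10 complex. It stood at 71.5 to 271.2 CPM in the controls, 206.1 to 1041 at low and 196.1 to 887.1 at high intensity, and the groups overlapped. The call held in 15 of 21 refits that left out 1 library (edgeR adjusted p from 0.0118 to 0.106) and not over all libraries (edgeR adjusted p = 0.164). At high intensity Ahnak was 1.68 (SE 0.45) above the controls (edgeR adjusted p = 0.0732).

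S100a6 stood at 6.49 ± 4.55 CPM in the controls (n = 5), 31.0 ± 15.1 at low (n = 5) and 25.4 ± 24.5 at high intensity (n = 4). Its log2 fold changes were 2.24 (SE 0.55) and 1.92 (SE 0.57), with edgeR adjusted p = 0.0580 and 0.104, and neither passed. S100a11, a partner of Anxa1, was at 0.84 (SE 0.30) and 0.90 (SE 0.32) and did not pass. S100a10, the partner of Anxa2, was at 0.37 (SE 0.14) and 0.15 (SE 0.15) and did not pass. The median of the 14 genes was 0.48 at low and 0.57 at high intensity.

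Markers of other cell types were summed in each library. In bulk RNA, fewer cells of a type and less RNA per cell cannot be told apart. All 5 neuron markers were detected in every group, with sums of 3235 to 3478 CPM in the controls, 2501 to 3505 at low and 2236 to 3331 at high intensity. Over the 21 deeper libraries log2 of that sum had r = -0.79 with Anxa3, and r = -0.75 after group means were taken away. For the 7 motor neuron markers, all detected, these were -0.69 and -0.59, with sums of 105.2 to 162.4 CPM in the controls, 70.5 to 117.9 at low and 75.2 to 128.1 at high intensity. The libraries richest in Anxa3 were thus among the lowest in neuron markers.

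The 9 fibroblast and mesenchyme markers, all detected in every group, summed to 386.0 to 958.5 CPM in the controls, 290.2 to 2620 at low and 965.6 to 2462 at high intensity, with r = 0.55 with Anxa3 (0.44 after group means were taken away). Skeletal muscle markers, 4 of 7 detected in the controls and 7 and 6 at low and high intensity, summed to 8.46 to 66.9, 6.47 to 139.8 and 16.2 to 171.1 CPM, with r = 0.71 (0.79). Myod1, Myog and Tnnt3 were at 0 in the controls and Ckm at high intensity. Des and Acta1 were the most abundant of these 7 in every group, and how the rest of the list follow Anxa3 was not examined. Of the 6 microglia and macrophage markers, Aif1, C1qa and Tyrobp were at 0 in the controls and both intensity groups, and r was 0.14. These are descriptions over libraries, and the part of other cell types in the annexin levels was not tested.

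**Figure D4:**
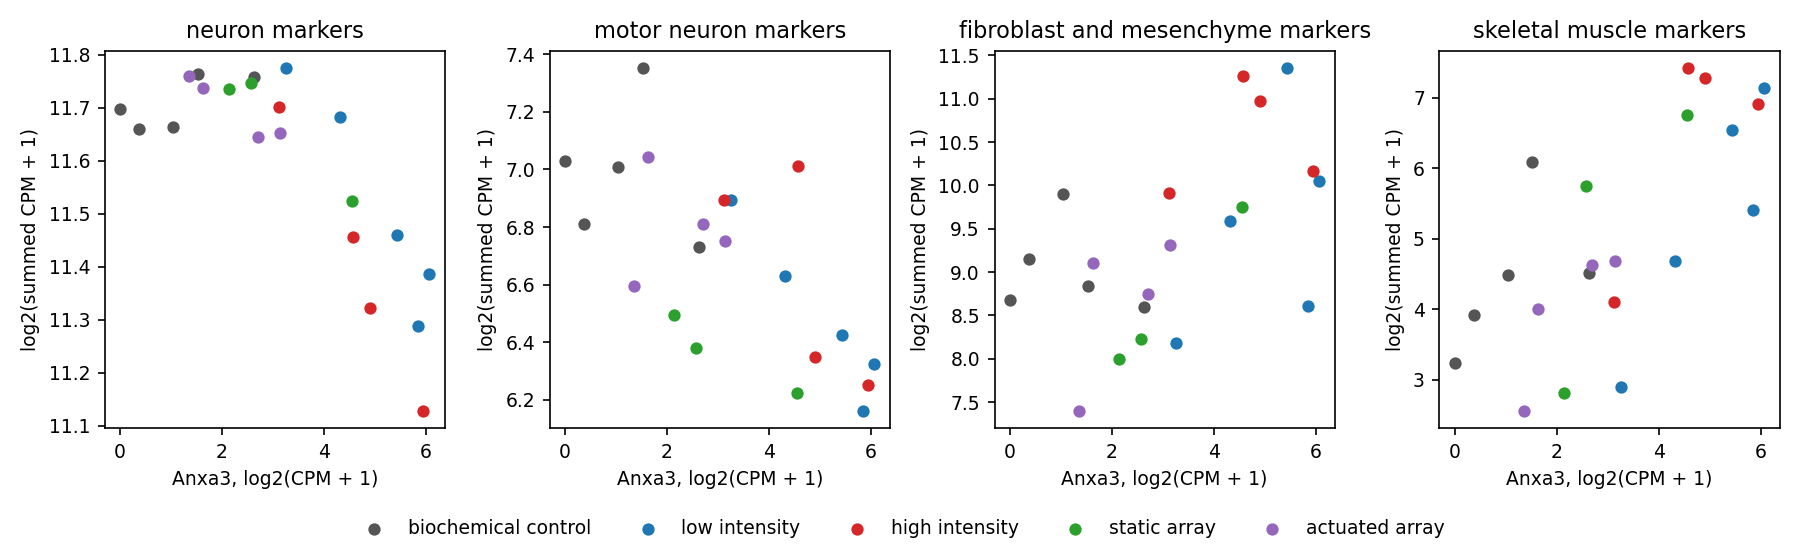
Summed level of neuron, motor neuron, fibroblast and skeletal muscle markers (vertical axis, log2(summed CPM + 1)) against Anxa3 (horizontal axis, log2(CPM + 1)), with 1 point per deeper library coloured by group. Neuron markers fall with Anxa3 (r = -0.79) and the skeletal muscle sum, in which Des and Acta1 are the most abundant, climbs (r = 0.71).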

How the data were processed

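RNA was sequenced from 26 libraries made with a low-input kit that depletes rRNA fragments, per the labels' protocols. The authors deposited 2 tables by gene: expected counts, also called estimated counts, in whole numbers, whose columns sum to different totals, and TPM. BWA 0.7.12-r1039, bedtools 2.25.0, STAR and Salmon, and the builds mm10, hg19 and GRCm39, are named without a role in the submitters' processing notes. Whether counting used the strand is not given in the sources used here. Of the 234 pairs of member and library, 0 were at 0 in 1 table and above 0 in the other.

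Counts were rounded and fitted with edgeR 4.0.16 (R 4.3.3; TMM, filterByExpr, quasi-likelihood F-test) with 1 coefficient per group over all libraries, and again over the 21 with over 1000000 counts on protein-coding genes. P-values were adjusted by Benjamini-Hochberg over all genes fitted, with a threshold of 0.05. DESeq2 1.42.0, limma 3.58.1 (voom, and log2(TPM + 1)), other scalings and filters, a replicate block and leaving out each library were alternatives. Correlations used log2(CPM + 1). Deviations from group means were permuted within groups, exactly; the intensity and the array libraries, when not centred, were permuted exactly over all their libraries, and the 14 pooled ones with 100000 resamples. Depth limits scarce members most: 3 counts are 0.755 to 1.93 CPM in the deeper biochemical libraries. The fit was also run on simulated counts, for high intensity against the controls in the deeper libraries only. Their spread followed the trend with level and was not set gene by gene. Only genes above a minimum level were given a change, so the run says nothing of the scarcest members.

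Named genes were the members, Anxa9, Anxa10 and Anxa13, the partners S100a10, S100a11 and S100a6 with Ahnak, and the 5 genes most like Anxa3. The members and lists were chosen with earlier results of these data known. Of the marker lists, endothelium (r with Anxa3 0.12), epithelium (0.25), astrocyte and radial glia (-0.15), pluripotent (0.09) and extraembryonic endoderm (0.54) are given here only. Transcripts (GENCODE M21) were searched for shared 50-base windows on both strands; 0 were shared between members. Promoter windows came from RefSeq (GRCm38.p6) for 7 of 9 members.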

Additional observations from a re-analysis of the deposited data

Results flagged for a closer look

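Of 36 groups of 4 or 5 deeper libraries, 7 held a library set far apart from the others, measured as its gap to the nearest value over the whole range. The cut-offs assume a normal spread, which scarce genes with levels at 0 do not have, so no rate by chance is given. Anxa8 stood at 20.2 CPM in low intensity replicate 1, 0.580 CPM in control replicate 6 and 0.845 CPM in actuated replicate 2, and in the last 2 every other library of the group was at 0. Anxa7 stood at 41.5 CPM in control replicate 3 and 30.9 CPM in actuated replicate 4. Anxa11 stood at 6.66 CPM in control replicate 2, and Anxa6 at 92.2 CPM in control replicate 6. Control replicate 6 was also the control with the most Anxa3, at 5.22 CPM.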

How the results depend on the processing

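The counts of members called here include Anxa3, whose difference chose the family, and only show how calls moved with the setting. At high intensity against the controls 1 member was called over all libraries. It was 3 with no filter on low counts (Anxa1, Anxa3, Anxa4; 220 of all genes), 2 by DESeq2 (Anxa3, Anxa4; 77 genes), 6 by limma on TPM in the deeper libraries (2324 genes), 0 with the replicate block over all (1 gene) or the deeper libraries (2 genes), and 0 by voom, by limma on log2(TPM + 1) and log2(TPM + 0.1) and with only the groups compared, where 0 of all genes were called. At low intensity 1 member was called over all libraries, 2 in the deeper ones (88 genes) and with only the groups compared (74), 3 with no filter (153), 2 by DESeq2 (18), 9 by limma on TPM in the deeper libraries (5440), 0 with the block in the deeper libraries (8), and 0 by voom and by limma on log2(TPM + 1) or log2(TPM + 0.1), where 0 genes were called. With no filter, 1 member (Anxa3) was called for the static array against the controls. On the log2(TPM + 1) scale all genes shifted by 0.53 (high) and 0.64 (low) in the deeper libraries, and changes are relative to that. The cause of the other differences was not tested.

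Leaving out 1 library gave 0 to 1 members at high intensity (0 without control 1, 2 or 3, low intensity 6 or high intensity 3) and 0 to 3 in the deeper libraries (0 without control 2, 3 or 5, high intensity 1, 2 or 3, actuated 1 or static 1 or 2; 3 without high intensity 6). At low intensity it gave 0 to 2 (0 without low intensity 5, 2 without high intensity 3) and 0 to 6 in the deeper libraries (0 without low intensity 1, 6 without low intensity 3). The other contrasts stayed at 0.

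Anxa7 at high intensity was -0.03 over all libraries and 0.18 in the deeper ones, 0.058 with DESeq2 size factors, 0.0525 by DESeq2, 0.27 by voom, 0.026 by limma on log2(TPM + 1), 0.26 with the block in the deeper libraries (-0.02 over all) and 0.65 by limma on TPM in the deeper libraries; without 1 library it was -0.20 to 0.42. With log2(TPM + 0.1), Anxa2 and Anxa5 were at -0.47 and -0.47 at high intensity, and Anxa2, Anxa5 and Anxa7 at -0.0091, -0.063 and -0.0105 at low intensity. Anxa3 in high against low intensity was 0.077 with the block in the deeper libraries, and in actuated against static array -1.74 to 0.038 without 1 library. Of the correlations with Anxa3, 7 of 8 passed when groups were pooled and 4 on deviations from group means, or 3 there with log2(CPM + 0.1), where Anxa5 did not pass (exact permutation adjusted p = 0.0533). Same-numbered libraries had correlations of -0.29 to 0.27 on deviations from group means. Differently numbered libraries were not set beside them, so this cannot tell whether the numbers pair the libraries.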

Other observations

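The family genes outside the 9 were close to the limit of detection. Anxa10 had 37 counts over the 5 deeper controls (0.701 to 5.75 CPM), 7 at low intensity (0 in 3 of 5 libraries) and 24 at high intensity (0 to 4.96 CPM), so it did not have the pattern of Anxa3 by level; it was also at 1.63 ± 1.14 CPM on the actuated array (SD, n = 4) and 0.595 ± 0.391 on the static array (n = 3). Anxa9 had 8, 6 and 9 counts in the controls, low and high intensity. Anxa13 had 0, 1 and 1. None of these was tested.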
